A study of Mus musculus with 15 samples.

Results

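The comparison described here is that of *Prom1*-KO clone 26 (KO26) with wild-type (WT) cells of a cultured mouse retinal pigment epithelium line (mRPE). Its members were chosen by the cell line label of each sample and number 6 of the 15 samples of the series, 2 libraries of KO26 (8995-SB-3 and 9262-SB-6) and 4 of WT (8995-SB-1, 9262-SB-1, 9262-SB-2 and 9262-SB-3). The other mRPE libraries are 3 of a second clone, KO22, and the remaining samples are RPE/choroid tissue of mice. The study asked what loss of *Prom1* does to RPE cells, and the KO26 libraries did not enter its own comparison of knockout with WT. It removed them as outliers that remained in a principal component analysis, a summary of variation between libraries, after batch correction. It proposes biological heterogeneity or technical anomalies as the reason, and every KO26 value below comes from these libraries.

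All groups share one parental line, made from RPE cells pooled from adult C57/BL6J mice and immortalised with lentiviral HPV E6/E7, viral proteins known to inactivate p53 and RB. For the knockout, cells with stable lentiviral Cas9, selected with puromycin, were transfected with a guide RNA against *Prom1*, and the label WT does not say whether the WT cells carried Cas9 or a scrambled guide. KO26 is 1 clone, so an effect of *Prom1* loss and a property of that clone cannot be told apart here.

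Prominin-1, the product of *Prom1*, is a cholesterol-binding membrane glycoprotein of plasma membrane protrusions, best known as a stem cell marker and for its part in building photoreceptor discs. The RPE is the pigmented, normally non-dividing epithelium behind the retina. It recycles retinoids, takes up shed photoreceptor tips and forms the outer blood-retinal barrier. When its cells leave this state in culture, they divide, lose pigment and make matrix.

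The guide is shown because it is the one given for the knockout. It is printed with the 3 bases that follow it in the genome, the PAM, in capitals.
Prom1 guide: cgttgctgcaacaaatgcggCGG
In GRCm39 the guide had 1 match on chromosome 5, on the minus strand at 44213310 to 44213329. This is inside exon 5 of the *Prom1* transcript ENSMUST00000074113.13. The study describes deletions at separate sites within *Prom1* in its independent knockout lines, and the guide alone does not show which one KO26 carries. *Prom1* itself was not analysed here in the mRPE libraries, so the knockout was not checked here at its own transcript. The study reported no Prom1 protein by Western blot, and less *Prom1* transcript by qPCR, in both of its knockout clones.

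Total counts were 10187978 to 27537863 in the WT libraries, and 24175274 (8995-SB-3) and 8076188 (9262-SB-6) in KO26. Mitochondrially encoded genes took 17.6% to 21.6% of the counts in WT and 17.4% and 12.9% in KO26. Of 15 RPE markers, 5 were measured (*Best1*, *Kcnj13*, *Mitf*, *Pmel* and *Rdh5*), and their summed level was 20.8 to 29.3 CPM (counts scaled to a common library size) in WT and 12.9 to 19.2 CPM in KO26. *Rpe65*, *Lrat*, *Rlbp1*, *Rgr*, *Ttr*, *Otx2*, *Tyr*, *Tyrp1*, *Krt8* and *Krt18* were not analysed here. The 8 measured fibroblast and pericyte markers summed to 5230 to 6850 CPM in WT and 7140 to 8900 CPM in KO26. Most of it was *Col1a1*, at 3399 to 5406 CPM in WT and 6137 and 7596 CPM in KO26. *Pdgfra*, the next most abundant, went the other way, at 1141 to 1572 CPM in WT and 588 and 971 CPM in KO26. The sum is therefore not a rise of every marker. The most abundant of the 5 RPE markers, the potassium channel gene *Kcnj13*, was at 8.98 to 11.9 CPM in WT and 4.78 and 6.59 CPM in KO26. *Mitf* and *Rdh5* were also below the WT range in both KO26 libraries. *Pmel* and *Best1* were not, at 1.919 to 2.258 and 3.153 to 4.234 CPM in WT. In 8995-SB-3 and 9262-SB-6 of KO26 *Pmel* had 1.995 and 2.66 CPM, and *Best1* had 1.763 and 4.395 CPM. The lower RPE sum is therefore not a fall of every marker.

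Each library name begins with 8995 (1 WT and 1 KO26 library) or 9262 (3 WT and 1 KO26 library). This prefix was taken here as the batch, the study having reported clustering by sequencing batch, so each batch gives its own comparison. CPM are on the TMM scale, which corrects for depth and composition. The comparison was tested by the quasi-likelihood method of edgeR, in a model with a batch term, with the spread taken over all 9 mRPE libraries, and p-values were adjusted over all 20737 genes tested. Calling a gene took an adjusted p below 0.05 together with a log2 fold change beyond 1.2 in either direction, about 2.3-fold. The labels do not say whether libraries of a group came from separate cultures, so p-values measure the spread between these libraries, which may be technical.

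In KO26, 250 genes (1.21% of those tested) were called higher than in WT and 149 (0.719%) lower. The median log2 fold change of all genes was 0.03. Both KO26 libraries lay above all 4 WT libraries in 219 of the 250 genes and below them in 147 of the 149. Among all genes tested, 11.9% had both KO26 libraries above and 12.8% had both below. All 399 called genes had the same direction within each batch, but the same libraries made the calls, so this is no separate check. Genes without a name beyond a model number made up 28 of the genes called higher and 56 of those called lower.

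The number of calls depended on single libraries. Without the WT library 8995-SB-1 it was 239 higher and 100 lower, and without the KO26 library 8995-SB-3 it was 82 and 32. Leaving out 9262-SB-1, 9262-SB-2 or 9262-SB-3 of WT gave 68 and 58, 70 and 49, and 78 and 53 calls. Without the KO26 library 9262-SB-6, 368 genes were called higher and 258 lower. Of the 399 called genes, 48 (25 higher and 23 lower) were called in all 6 of these fits, and below "kept" means that a gene was called again in a fit without 1 library.

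**Figure D1:**
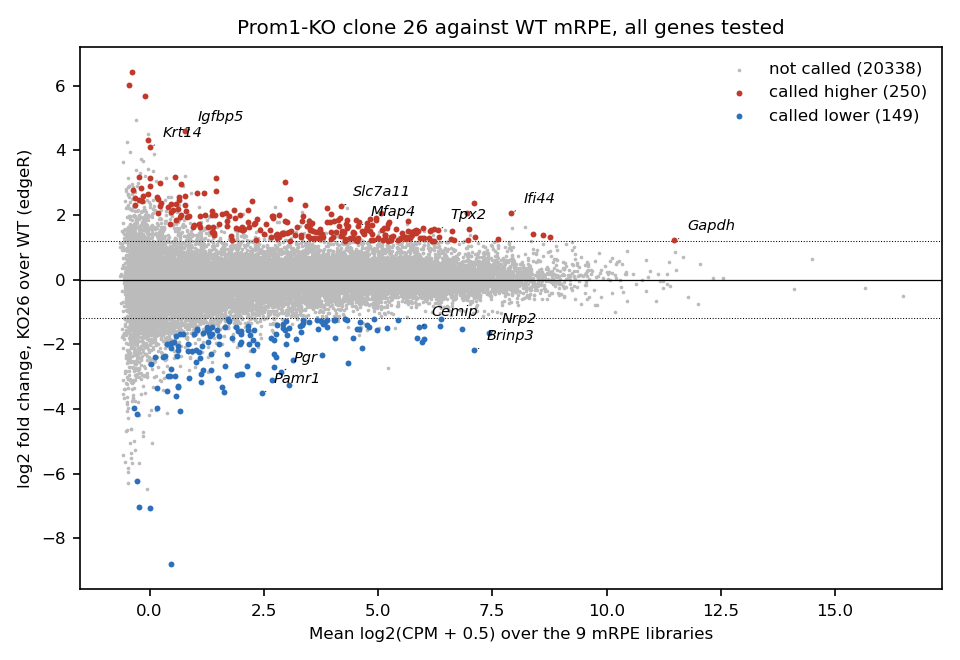
Log2 fold change of KO26 over WT for each of the 20737 genes tested (edgeR) against the mean log2(CPM + 0.5) over the 9 mRPE libraries. The 250 genes called higher are red, the 149 called lower are blue, and dotted lines mark the fold limit of 1.2 on the log2 scale.

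Genes of cell division were higher in KO26. Of 33 tested genes of mitosis, 16 were called higher and 0 lower, all 33 had a positive log2 fold change, and the list median was 1.21. Of 35 tested genes of DNA replication and of the E2F transcription factors that switch them on, 12 were called higher and 0 lower, and the median was 1.18. These shares, 48.5% and 34.3%, stand beside the 1.21% of all genes. Both KO26 libraries lay above all 4 WT libraries in 31 and 32 of the genes, beside 11.9% of all genes tested.

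*Tpx2* (ENSMUSG00000027469, chromosome 2, 152689854 to 152737245 in GRCm39), which activates Aurora A on the spindle, had 38.02, 40.4, 34.8 and 35.0 CPM in the WT libraries 8995-SB-1, 9262-SB-1, 9262-SB-2 and 9262-SB-3. It had 112.5 CPM in 8995-SB-3 and 98.0 CPM in 9262-SB-6 of KO26. Every KO26 value was well over every WT value, with WT in a narrow band. The log2 fold change was 1.55 (SE 0.18, adjusted p = 0.00421 from edgeR).

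*Aurkb*, the kinase of the chromosomal passenger complex, had 25.4, 24.1, 23.1 and 21.2 CPM in WT and 85.3 and 73.6 CPM in KO26, in the same order of libraries. Its log2 fold change was 1.82 (SE 0.25, edgeR adjusted p = 0.00800), and 5 of the 6 fits kept the call. *Bub1*, a kinase of the spindle checkpoint, had 41.6, 33.7, 30.8 and 29.7 CPM in WT and 86.1 and 111 CPM in KO26. The groups were apart for both kinases, with the higher KO26 value in batch 8995 for *Aurkb* and in batch 9262 for *Bub1*.

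*Ube2c*, which passes ubiquitin to the anaphase-promoting complex, had 32.8, 22.8, 19.8 and 22.7 CPM in WT and 102.8 and 50.7 CPM in KO26. *Cdk1*, the kinase that starts mitosis, had 55.1, 39.8, 37.5 and 40.2 CPM in WT and 134.6 and 73.9 CPM in KO26. In both genes the library of batch 8995 was the highest of its group, and no KO26 library fell into the WT range. Their log2 fold changes were 1.50 (edgeR adjusted p = 0.00859) and 1.21 (adjusted p = 0.0381), with the call kept in 5 and in 1 of the 6 fits.

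The other mitotic genes called higher were *Ttk*, *Bub1b*, *Mad2l1* and *Nuf2* of the checkpoint and kinetochore, the kinesins *Kif11*, *Kif23* and *Kif2c*, the B cyclins *Ccnb1* and *Ccnb2*, *Aurka*, and the anaphase activator *Cdc20*. Their log2 fold changes were between 1.21 and 1.59. *Mki67*, *Top2a* and *Ccna2*, common markers of cycling cells, had log2 fold changes of 1.09, 1.15 and 1.17, with an adjusted p under 0.05 from edgeR but below the fold limit. *Bub3* was the least changed of the list, at 0.53.

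Outside the list, *Cdc25b*, a phosphatase that activates CDK1, was at 8.62 to 11.04 CPM in WT and 25.5 and 25.8 CPM in KO26. *Prr11*, a gene of late cell cycle phases, was at 24.2 to 27.3 CPM in WT and 62.6 and 61.7 CPM in KO26. These were among the most even of the changes, with both KO26 libraries almost level. Of the abundant genes called higher, *Hjurp*, the chaperone that places centromeric histone, was at 105 to 132 CPM in WT and 252 and 299 CPM in KO26. *Hmmr*, a spindle and hyaluronan-binding protein, was at 43.1 to 66.9 and at 155.7 and 102.5 CPM. Their calls were kept in 2 and 3 of the 6 fits.

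In the replication list 12 genes were called. *Cdc6* and *Cdc45* of origin firing, the helicase subunits *Mcm3* and *Mcm4* with *Mcm10*, the polymerases *Pole* and *Pold1*, the flap nuclease *Fen1*, cyclin E1 (*Ccne1*), the repressors *E2f7* and *E2f8*, and *Uhrf1*, which keeps up DNA methylation, were called higher. *Cdc45* had 6.99, 5.00, 5.60 and 5.67 CPM in WT and 24.9 and 17.4 CPM in KO26, a log2 fold change of 1.85 (SE 0.25, edgeR adjusted p = 0.00749). *Mcm3* had 31.3, 23.3, 24.5 and 27.0 CPM in WT and 97.2 and 62.1 CPM in KO26. KO26 was above WT in every library for both genes, by more in batch 8995, and 5 and 2 of the 6 fits kept the calls.

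Among 31 tested CDK inhibitors, D cyclins and p53 targets no gene was called, and the median was 0.24. *Cdkn1a* and *Cdk6* were at log2 fold changes of 0.71 and 0.82 with an edgeR adjusted p under 0.05. *Cdkn2a*, which encodes the inhibitors p16 and p19ARF, was at 0 to 0.0686 CPM in WT and at 0.0928 and 0 CPM in KO26, too low for a fold. Of 26 MYC and ribosome biogenesis genes, 0 were called in either direction, with a median of 0.33. That median was -0.05 without 8995-SB-3 of KO26 and 0.78, with 2 genes called higher, without 9262-SB-6.

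The calls of both division lists rested on several libraries. Without 8995-SB-3 of KO26 the mitosis list had 3 calls and the replication list 0. Without 9262-SB-1, 9262-SB-2 or 9262-SB-3 of WT the mitosis list had 6, 5 and 6 calls, and the replication list had 1 in each. The list medians stayed positive, from 0.95 to 1.49 for mitosis and from 0.70 to 1.56 for replication. Within batches the medians were 1.14 in 8995 and 1.10 in 9262 for mitosis, and 1.13 and 0.88 for replication.

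The promoters of *Ube2c* and *Cdk1* are shown because genes of this phase are known to carry a cell cycle homology region (CHR, TTTGAA or TTCGAA) near CCAAT boxes. The 250 bases before each start are from RefSeq on GRCm38.p6, read in the direction of the gene, with CHR and CCAAT letters on either strand in capitals. Capital runs of overlapping matches are joined.
Ube2c (chr2:164769679-164769928, plus strand): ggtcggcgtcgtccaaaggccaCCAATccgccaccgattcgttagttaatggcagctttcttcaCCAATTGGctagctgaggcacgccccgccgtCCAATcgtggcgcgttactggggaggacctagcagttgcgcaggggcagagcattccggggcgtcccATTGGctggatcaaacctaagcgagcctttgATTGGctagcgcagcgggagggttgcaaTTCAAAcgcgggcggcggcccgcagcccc
Cdk1 (chr10:69352913-69353162, minus strand): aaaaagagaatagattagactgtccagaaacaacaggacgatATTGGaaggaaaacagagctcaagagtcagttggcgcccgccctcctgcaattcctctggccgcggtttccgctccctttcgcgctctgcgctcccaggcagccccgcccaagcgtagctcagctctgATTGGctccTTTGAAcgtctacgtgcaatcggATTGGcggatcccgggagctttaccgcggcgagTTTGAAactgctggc
*Ube2c* held 1 CHR, 29 bases before its start, and *Cdk1* held 2, at 71 and 15 bases. Of the 16 mitotic genes called higher, 14 had such a window, and CHR letters were in 7 of them (50%) and CCAAT in 11 (78.6%). Over all 11738 tested genes with a window the shares were 15.5% and 40.2%. In the 10 windows of the replication genes called higher the counts were 3 and 6. A match is only a match of letters, and no binding was measured.

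**Figure D2:**
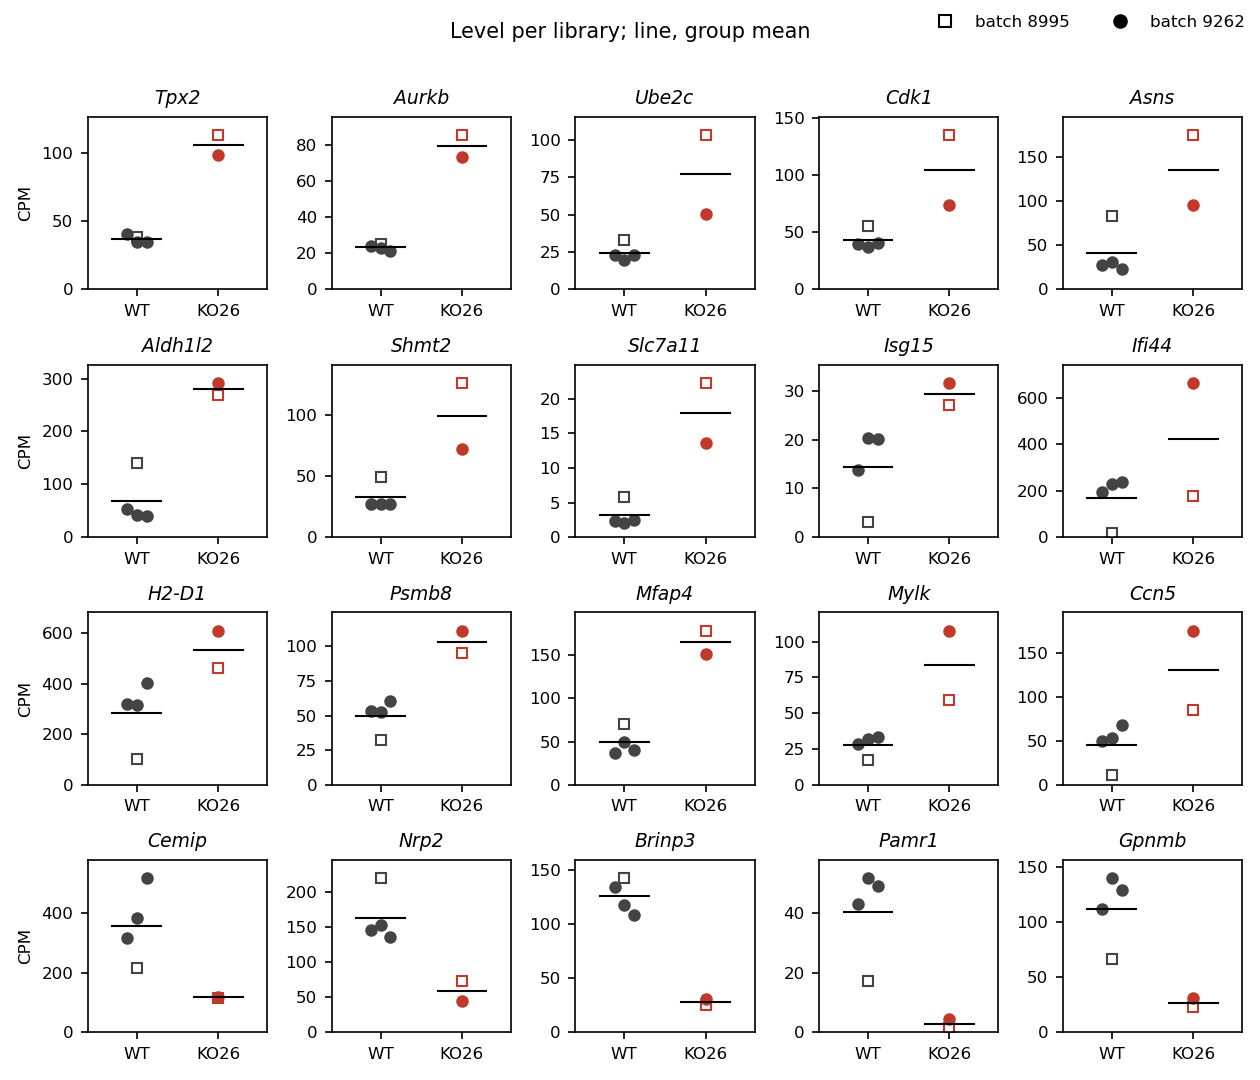
CPM per library for 20 genes in WT (grey, 4 libraries) and KO26 (red, 2 libraries), with open squares for batch 8995, filled circles for batch 9262 and a line at the group mean. The KO26 values lie above the WT range for *Tpx2*, *Aurkb* and *Mfap4* and below it for *Nrp2*, *Brinp3* and *Pamr1*, while *Ifi44* overlaps.

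Genes of amino acid supply and one-carbon metabolism were also higher. ATF4 is the transcription factor through which cells answer amino acid shortage and stress of the endoplasmic reticulum, and its targets make serine, glycine, asparagine and the carriers of single carbon units. Of 33 tested genes, 9 (27.3%) were called higher and 0 lower, with a median log2 fold change of 0.90. Over all genes tested the shares were 1.21% and 0.719%. *Shmt2*, *Aldh1l2* and *Mthfd2* of the mitochondrial folate pathway, *Psat1* of serine synthesis, *Asns*, the alanyl-tRNA synthetase *Aars1*, the leucine transporter *Slc7a5*, and the regulators *Atf3* and *Trib3* were the 9. *Atf3* lost its call in each of the 6 fits.

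*Asns* (ENSMUSG00000029752, chromosome 6, 7671667 to 7728461), asparagine synthetase, had 83.2, 27.4, 31.3 and 23.2 CPM in WT and 174.9 and 96.0 CPM in KO26. The WT library of batch 8995 stood far above the other WT libraries and only a little under the KO26 library of batch 9262. Within a batch the log2 difference was 1.07 (8995) and 1.81 (9262), and the fit gave 1.55 (SE 0.22, edgeR adjusted p = 0.00859). The call was kept in all 6 fits.

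*Aldh1l2*, a mitochondrial formyltetrahydrofolate dehydrogenase, had 139.6, 53.4, 42.1 and 39.5 CPM in WT and 268.4 and 291.7 CPM in KO26. *Shmt2*, which turns serine into glycine in mitochondria, had 49.6, 27.4, 26.8 and 27.1 CPM in WT and 126 and 71.9 CPM in KO26. KO26 was above every WT library in both, and 8995-SB-1 was again the highest WT library. *Aldh1l2* lost its call without 9262-SB-6 (log2 fold change 0.95 in place of 2.05), and *Shmt2* kept its call in 5 of the 6 fits.

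*Psat1*, *Aars1* and *Slc7a5* had 1 KO26 library, 9262-SB-6, inside the WT range. *Psat1* had 165, 57.6, 60.8 and 52.96 CPM in WT and 311 and 158 CPM in KO26. Its within-batch differences were 0.91 and 1.47, and 1 of the 6 fits kept the call. *Mthfd1l*, a mitochondrial folate enzyme outside the list and among the abundant genes called higher, was at 40.4 to 67.7 CPM in WT and 113 and 136 CPM in KO26, with the call kept in 5 fits.

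The order of the WT libraries was a feature of the list. The library 8995-SB-1 was the highest WT library in 28 of its 33 genes, against 7575 of all 20737 genes. Without it the list had 11 calls and a median of 1.07. Without 8995-SB-3 it had 2 calls, without any 1 of the other WT libraries 3, and without 9262-SB-6 5. Both batches gave a positive median, 0.90 in 8995 and 0.83 in 9262.

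*Slc7a11* (ENSMUSG00000027737, chromosome 3, 49846975 to 50398070), the cystine-glutamate exchanger that feeds glutathione synthesis, had the smallest p of the genes called higher. It had 5.76, 2.33, 2.06 and 2.51 CPM in WT and 22.3 and 13.7 CPM in KO26. Both KO26 libraries were far above every WT library. The log2 fold change was 2.27 (SE 0.17, edgeR adjusted p = 0.000678) and all 6 fits kept the call. *Nqo1*, a quinone reductase and standard NRF2 target, had 3.66, 2.54, 2.46 and 2.80 CPM in WT and 9.002 and 7.29 CPM in KO26, a log2 fold change of 1.39. These were the 2 calls among 37 NRF2 and glutathione genes (median 0.36), in which *Gclc*, *Gclm*, *Hmox1* and *Txnrd1* were at 0.37, -0.41, 0.23 and 0.41 and not called.

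The promoters of *Asns* and *Slc7a11* are shown for the ATF4 element TGATGNAA, in capitals, which was found in 2 of the 6 windows available for the 9 ATF4 list genes called higher and in 2.47% of all windows. *Slc7a11* is not in that list. The windows are again the 250 bases before the start in GRCm38.p6, searched on both strands.
Asns (chr6:7693210-7693459, minus strand): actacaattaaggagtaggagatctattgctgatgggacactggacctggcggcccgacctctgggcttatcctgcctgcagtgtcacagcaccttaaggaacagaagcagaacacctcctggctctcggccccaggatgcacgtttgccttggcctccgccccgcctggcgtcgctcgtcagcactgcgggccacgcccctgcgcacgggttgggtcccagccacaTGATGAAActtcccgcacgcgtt
Slc7a11 (chr3:50443614-50443863, minus strand): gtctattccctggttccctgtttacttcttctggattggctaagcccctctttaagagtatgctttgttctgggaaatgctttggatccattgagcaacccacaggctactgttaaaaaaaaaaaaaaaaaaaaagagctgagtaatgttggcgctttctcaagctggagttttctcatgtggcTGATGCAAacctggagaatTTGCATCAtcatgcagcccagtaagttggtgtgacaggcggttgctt
The element lay 23 bases before the start of *Asns*. In *Slc7a11* it was present at 66 bases and, on the other strand, at 47 bases before the start.

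In energy metabolism, of 28 tested genes of glycolysis and the hypoxia response, 1 was called higher and 0 lower, and the median was 0.70. An edgeR adjusted p under 0.05 with a positive log2 fold change was found in 8 of them, beside 490 of all 20737 genes. *Gapdh*, the called gene, had 2542, 2105, 1777 and 1679 CPM in WT and 5622 and 4516 CPM in KO26, a log2 fold change of 1.22 (SE 0.15, adjusted p = 0.00491), with the call kept in 3 of 6 fits. *Gapdh* has many processed pseudogenes, so the counting of its reads is uncertain. *Hk2*, *Tpi1*, *Eno1* and *Pkm* were at 1.16, 0.96, 0.92 and 0.89. Of 42 nuclear-encoded genes of oxidative phosphorylation 0 were called (median 0.28), and none of 9 mitochondrially encoded genes was (median -0.39). Both medians turned on single KO26 libraries, at -0.16 and -1.04 without 8995-SB-3 and at 0.77 and 0.11 without 9262-SB-6. The glycolysis median stayed positive but was 0.31, with 0 calls, without 9262-SB-6.

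Of 29 genes of cholesterol synthesis and lipid transport, 27 had a positive log2 fold change (median 0.55), and 0 were called higher. The median was 0.04 without 8995-SB-3 of KO26, and 1.04 with 3 genes called higher without 9262-SB-6. The 1 called lower, *Abca1*, exports cholesterol to apolipoproteins. It had 83.1, 153.8, 197.6 and 178.8 CPM in WT and 36.2 and 64.5 CPM in KO26. KO26 was below every WT library, with 8995-SB-1 the nearest, and the log2 fold change was -1.51 (SE 0.34, edgeR adjusted p = 0.0381) with the call kept in 1 of 6 fits. No call was made among 21 bile acid and sterol oxidation genes or 22 endoplasmic reticulum chaperones.

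**Figure D3:**
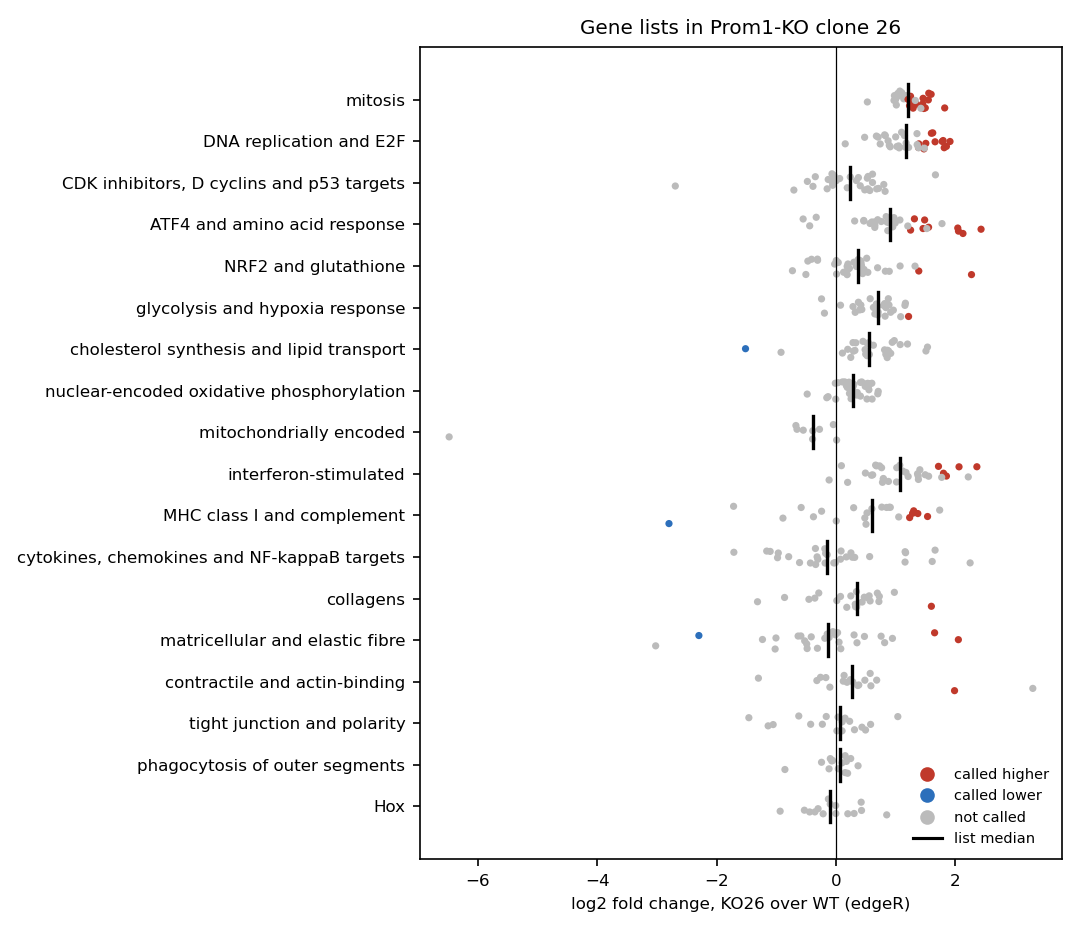
Log2 fold change of KO26 over WT (edgeR) for each tested gene of 18 lists, one point per gene, red where called higher, blue where called lower, with a black bar at the list median. The mitosis and replication lists lie wholly above 0, with medians of 1.21 and 1.18, and the Hox list lies around 0 with a median of -0.10.

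Interferon-stimulated genes were higher in KO26 as fitted, by different amounts in the batches. Type I interferon induces antiviral proteins that sense, degrade or trap viral RNA, through the factor ISGF3 and the IRFs. Of 33 tested genes, 5 (15.2%) were called higher and 0 lower, with a median of 1.07. Over all genes tested the shares were 1.21% and 0.719%. The called genes were *Irf7*, *Ifi44*, *Oas3*, *Dhx58* and *Isg15*.

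*Oas3*, which makes the second messenger that activates RNase L, had 29.9, 157.9, 150.5 and 168.6 CPM in WT and 256.5 and 402.3 CPM in KO26. *Isg15*, a ubiquitin-like antiviral protein, had 3.06, 13.8, 20.2 and 20.2 CPM in WT and 27.1 and 31.6 CPM in KO26. Both KO26 libraries were above all WT libraries, and 8995-SB-1 was several-fold below the other WT libraries. For *Isg15* the difference within a batch was 2.95 in 8995 and 0.81 in 9262 on the log2 scale, and the fit gave 1.72 (SE 0.41, edgeR adjusted p = 0.0468).

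*Ifi44* had 18.99, 195.6, 229.7 and 237.6 CPM in WT and 179 and 665 CPM in KO26. *Irf7*, the factor that amplifies interferon production, had 5.44, 23.6, 30.0 and 35.7 CPM in WT and 32.8 and 71.9 CPM in KO26. In both genes the KO26 library of batch 8995 lay within or below the range of the WT libraries of batch 9262, so the groups overlapped across batches but not within them. *Dhx58*, a helicase of the RNA-sensing family whose locus has an annotated antisense partner, overlapped in the same way.

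In this list 8995-SB-1 was the lowest WT library in 32 of 33 genes. The median difference was 2.10 in batch 8995 and 0.58 in batch 9262, and was positive in 33 and in 32 of the 33 genes. Without the batch term the list median was 0.53 and 0 genes were called. Without 8995-SB-1 the median was 0.59 with 3 calls, and without 8995-SB-3 it was 0.69 with 0 calls. The other omissions gave 1 call (9262-SB-1), 1 (9262-SB-2), 2 (9262-SB-3) and 8 (9262-SB-6). *Isg15*, *Oas3* and *Dhx58* kept their calls in 1 of the 6 fits, *Ifi44* in 3 and *Irf7* in 5. What set the WT libraries apart was not tested.

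Genes that cut peptides and load them onto MHC class I were also called. Of 23 tested MHC class I and complement genes, 5 (21.7%) were called higher and 1 lower, with a median of 0.60. Over all genes tested the shares were 1.21% and 0.719%. *Psmb8* and *Psmb9*, subunits of the immunoproteasome, *Tap1*, which carries peptides into the endoplasmic reticulum, and the class I chains *H2-D1* and *H2-Q4* were higher. *Psmb8* had 32.5, 53.1, 52.8 and 60.8 CPM in WT and 95.0 and 111 CPM in KO26, a log2 fold change of 1.28 (SE 0.19, edgeR adjusted p = 0.00921), and *Psmb9* had a log2 fold change of 1.53. *H2-D1* had 101.6, 319.5, 314.6 and 402.4 CPM in WT and 460.2 and 609.5 CPM in KO26. For *H2-D1* KO26 was above WT throughout and 8995-SB-1 was the lowest library, while *Tap1* and *H2-Q4* each had the KO26 library 8995-SB-3 inside the WT range.

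The class I chains are near-identical relatives of one another, so how their reads were divided is uncertain. *Psmb8* and *Psmb9* kept their calls in 5 of the 6 fits and *Tap1*, *H2-Q4* and *H2-D1* in 2. Without 8995-SB-1 the list had 2 calls, without 8995-SB-3 0, and without 9262-SB-1 or 9262-SB-2 2 each. Outside the list, the abundant interferon-inducible genes *Ly6e* and *Lgals3bp* were at 165.6 to 328 and 101 to 434 CPM in WT and at 414 and 669 and 453 and 645 CPM in KO26, with the call kept in 4 and 1 of the fits. *Cd55*, which shields cells from complement, was the gene called lower, at 2.50 to 19.1 CPM in WT and 0.835 and 1.04 CPM in KO26, with 2 of the 6 fits keeping the call. Its annotated antisense partner was also called lower.

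None of the 31 tested genes of the list of cytokines, chemokines and NF-kappaB targets was called (median -0.15, from -0.52 without 9262-SB-6 to 0.24 without 8995-SB-3), nor any of 25 genes of the BCL2 family and death receptors (median 0.36, and 0.14 to 0.63 over the same omissions). The interferon-inducible chemokine genes *Cxcl9* and *Cxcl11*, outside the list and singled out after their values were seen, were called higher. *Cxcl9* had 0.238, 1.92, 4.22 and 2.73 CPM in WT and 2.13 and 24.3 CPM in KO26, and *Cxcl11* had 0.0397, 0.343, 0.589 and 0.933 CPM in WT and 0.650 and 4.05 CPM in KO26. In both the groups overlapped across batches, and 6 and 3 of the 6 fits kept the calls.

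The promoter of *Isg15* is shown for the interferon-stimulated response element (the letters GAAA, any 2 bases and GAAA again), searched on both strands and shown in capitals, in the same kind of window.
Isg15 (chr4:156200819-156201068, minus strand): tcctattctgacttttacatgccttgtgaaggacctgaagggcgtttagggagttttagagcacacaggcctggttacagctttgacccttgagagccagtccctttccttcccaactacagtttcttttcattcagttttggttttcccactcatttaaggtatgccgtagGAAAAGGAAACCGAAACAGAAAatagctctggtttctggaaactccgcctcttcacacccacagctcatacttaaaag
Overlapping matches began 78, 72 and 66 bases before the start. The element was in 2 of the 4 windows of the interferon-stimulated genes called higher, in 0 of the 5 of the MHC class I and complement genes called higher, and in 3.31% of all windows.

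**Figure D4:**
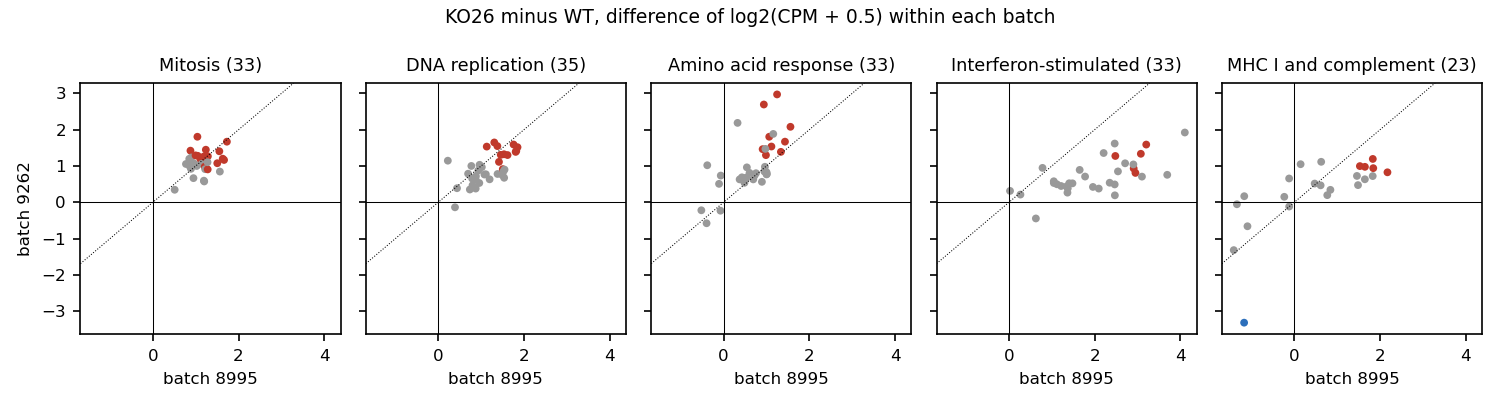
Difference of log2(CPM + 0.5) between KO26 and WT within batch 8995 (x axis, 1 library against 1) and within batch 9262 (y axis, 1 against the mean of 3) for the genes of 5 lists, red where called higher and blue where called lower. The mitosis genes lie near the dotted line of equal difference, with medians of 1.14 and 1.10, and most interferon-stimulated genes lie to its right, with medians of 2.10 and 0.58.

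Collagens, which form the fibrils and sheets of the matrix, had 1 call among 24 tested genes (*Col15a1*, which lost it in each of the 6 fits) and a median of 0.35. The log2 fold change was positive in 19 of the 24, and both KO26 libraries lay above all WT libraries in 12, beside the 11.9% of all genes. Without 9262-SB-6 the median was 0.11. Of 28 matricellular and elastic fibre genes, 2 were called higher and 1 lower, with a median of -0.13. *Mfap4*, a protein of elastic microfibrils, had 70.8, 36.5, 49.6 and 40.6 CPM in WT and 178.5 and 151 CPM in KO26, and *Ccn5*, a secreted growth regulator, had 11.4, 49.4, 52.7 and 67.9 CPM in WT and 84.9 and 175 CPM in KO26. *Mfap5*, another microfibril protein, went the other way, at 15.3, 25.8, 29.4 and 24.6 CPM in WT and 3.67 and 4.97 CPM in KO26.

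The 3 genes had log2 fold changes of 1.65, 2.05 and -2.30 (edgeR adjusted p = 0.00385, 0.00617 and 0.00164), and each call was kept in all 6 fits. *Cemip*, which degrades hyaluronan, had 213.9, 314.3, 381.9 and 514.8 CPM in WT and 114 and 119.8 CPM in KO26. KO26 lay below all WT libraries, whose own range was wide, and the log2 fold change was -1.46 (edgeR adjusted p = 0.019) with the call kept in 3 of the 6 fits. *Omd*, a keratan sulfate proteoglycan, was the 1 gene called lower among 8 small leucine-rich proteoglycans, and the protease *Mmp9* the 1 called higher among 24 matrix proteases and inhibitors.

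*Pamr1* (ENSMUSG00000027188, chromosome 2, 102380060 to 102473386), a secreted protein with a serine protease fold, had 17.1, 43.1, 51.6 and 49.0 CPM in WT and 1.39 and 4.51 CPM in KO26. Its log2 fold change of -3.51 (SE 0.26, edgeR adjusted p = 0.000678) was alike in both batches, at -3.22 and -3.27. *Ndnf*, a secreted neurotrophic and angiogenic factor, was at 9.12 to 16.3 CPM in WT and 1.58 and 1.16 CPM in KO26.

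Among contractile genes, *Actg2*, smooth muscle gamma-actin, was the 1 call of 18. It had 20.0, 7.06, 6.78 and 7.18 CPM in WT and 57.6 and 32.5 CPM in KO26, and 5 of the 6 fits kept the call. *Mylk* (ENSMUSG00000022836, chromosome 16, 34565580 to 34822790), the kinase that phosphorylates the myosin light chain, had 17.4, 28.5, 31.7 and 33.4 CPM in WT and 59.6 and 107.7 CPM in KO26. The *Mylk* values were apart in every library, with a log2 fold change of 1.82 (SE 0.17, edgeR adjusted p = 0.00139) and within-batch differences of 1.74 and 1.78. No call was made among 10 EMT transcription factors (median -0.05) or 17 integrin subunits (median 0.06).

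BMPs and activins are secreted ligands of the TGF-beta family. *Bmp3*, a BMP that restrains other BMPs, had 117, 149, 174 and 118 CPM in WT and 30.9 and 60.4 CPM in KO26, and with *Inhbb*, a subunit of activin B, it was lower (log2 fold changes -1.52 and -1.61, 2 of 6 fits keeping each call). *Chrdl1*, an extracellular BMP inhibitor, had 4.77, 5.62, 6.48 and 4.02 CPM in WT and 18.9 and 21.3 CPM in KO26. It was the 1 gene called higher of 32 in the BMP and TGF-beta list, whose median was -0.01, and its call was kept in all 6 fits.

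The other signalling lists held single calls. *Rspo2*, which amplifies Wnt signals, was the 1 lower call of 36 Wnt, Notch and Hedgehog genes (kept in 1 of the 6 fits), and *Fgf1* the 1 higher call of 30 genes of growth factors and their receptors (kept in 3). *Igfbp5*, an IGF carrier, was the 1 call of 16 IGF genes, at 0.119, 0.823, 2.06 and 0.502 CPM in WT and 19.8 and 13.4 CPM in KO26. At these WT levels its log2 fold change ranged from 3.53 without 8995-SB-1 to 6.21 without 9262-SB-6, and 4 of the 6 fits kept the call.

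*Nrp2* (ENSMUSG00000025969, chromosome 1, 62742444 to 62857854), a co-receptor for semaphorins and VEGF-C, had 219, 146, 152.7 and 135.4 CPM in WT and 72.8 and 44.3 CPM in KO26. *Brinp3* (ENSMUSG00000035131, chromosome 1, 146370498 to 146780462), a secreted protein known from neurons as a brake on the cell cycle, had 142.6, 134.7, 117.8 and 109 CPM in WT and 24.9 and 30.9 CPM in KO26. The groups were far apart in both, at log2 fold changes of -1.66 (SE 0.13) and -2.18 (SE 0.17), each with an edgeR adjusted p = 0.000678.

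*Cdh13*, a cadherin without a transmembrane part, had 74.2, 80.0, 96.6 and 84.9 CPM in WT and 23.3 and 24.1 CPM in KO26. *Gpnmb*, a melanosome and lysosome glycoprotein, had 66.4, 111.7, 139.5 and 129.3 CPM in WT and 22.6 and 30.9 CPM in KO26. *Stmn2*, which destabilises microtubules in neurons, had 54.5, 56.6, 48.1 and 46.2 CPM in WT and 12.95 and 16.5 CPM in KO26. None of the 3 genes had a KO26 library near the WT range, and all 6 fits kept these calls.

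Both imprinted genes called lower of 31 tested (median -0.03) encode growth regulators. *Grb10*, an adaptor that damps insulin and IGF receptors, had 67.5, 42.9, 49.9 and 44.6 CPM in WT and 26.3 and 16.0 CPM in KO26. *Dlk1*, a Notch-like regulator of differentiation, was at 21.0 to 31.6 CPM in WT and 11.9 and 9.72 CPM in KO26. The groups were apart in both, and 6 and 4 of the fits kept the calls.

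Genes of RPE function had few calls. None was made among 5 visual cycle genes, 8 eye and RPE transcription factors, 13 genes of ion, lactate and water transport, 14 genes of outer segment uptake or 18 of tight junctions and polarity, with list medians of 0.06, 0.25, 0.28, 0.07 and 0.07. Of 4 melanin and melanosome genes *Gpnmb* was called lower, of 11 cadherins, catenins and keratins *Cdh13* and *Jup* (plakoglobin) were lower, and of 36 cilium and protrusion genes the protocadherin *Cdhr1* was higher. *Mitf*, the master factor of pigment cells, was at 3.02, 6.17, 6.78 and 6.03 CPM in WT and 1.62 and 2.08 CPM in KO26, and did not pass the test (edgeR adjusted p = 0.0864). Of 9 retinoic acid genes *Crabp1*, which binds retinoic acid in the cytosol, was called higher, with 0 counts in all 4 WT libraries and 30 and 2 counts in KO26, and was called again in 1 of the 5 fits in which it passed the count filter. *Jup* and *Cdhr1* kept their calls in 1 of the 6 fits each.

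Single calls were also *Ctsk*, a collagen-degrading cathepsin that lost its call in each of the 6 fits, among 38 lysosome and autophagy genes, and *Atf3* among 36 immediate-early and circadian genes. None of 15 Hox genes or 5 sex-linked genes was called, with medians of -0.10 and -0.29. In all, 17 of the gene lists, with 310 genes, had no call by edgeR. Of these genes 46 were higher and 20 lower at an unadjusted edgeR p under 0.05, beside 4163 of all 20737 genes in either direction. DESeq2 called 4 of the 310 higher and 2 lower, beside 360 and 269 of all genes. Among the other cell types, 6 endothelial markers summed to 153 to 238 CPM in WT and 57.6 to 75.7 CPM in KO26. *Kdr*, the VEGF receptor 2, made up nearly all of that, at 234.5, 160, 151 and 162 CPM in WT and 72.3 and 55.3 CPM in KO26, while *Vwf*, *Tek* and *Pecam1* were at most 1.30 CPM in each of these libraries. Although below the WT range in both KO26 libraries, *Kdr* was not called. Photoreceptor markers summed to 11.2 to 13.9 and 10.7 to 11.5 CPM (7 of 13 measured), macrophage markers to 8.36 to 10.5 and 12.2 to 13.9 CPM (5 of 11), and Müller glia markers to 232 to 341 and 214 to 359 CPM (3 of 7). Their part in the gene changes was not tested. In bulk RNA, fewer cells of a type and less RNA per cell cannot be told apart.

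Of 52 genes that the study names from its RNA-seq comparison of KO22 with WT, 6 (11.5%) were called higher in KO26 and 1 (1.92%) lower. Over all genes tested the shares were 1.21% and 0.719%. A positive log2 fold change was found in 35 of the 52 and in 10777 of all 20737 genes. *Slc7a11*, *Nqo1*, *Bub1b*, *Ccnb2*, *Aurka* and *Cdk1* were higher and *Bmp3* was lower. A further 29 had a positive log2 fold change without a call, from 0.06 for *Qrich1* to 2.25 for *Il33*, among them *Plk1* at 1.42, *Mcm5* at 1.48, *Lhx2* at 1.86, *Grem1* at 0.83 and *Igfbp2* at 0.49. The remaining 16 had a negative value, among them *Ogn* at -1.12, *Cldn2* at -0.62, *Mertk* at -0.24 and *Postn* at -0.19, and *Cxcl2* had at most 3 counts in each KO26 library. By qPCR the study reported *Igfbp2*, *Postn* and *Mertk* lower and *Grem1* higher in both clones. It also reported *Pink1*, *Ablim1*, *Ogn* and *Aldh1a1* lower and *Slc7a11* higher by qPCR in knockout cells. By Western blot MerTK was lower in both clones, while Grem1 was significantly higher in KO26 only. For *Igfbp2* the qPCR direction differs from the value here. *Mertk* and *Postn* stayed near WT here (edgeR adjusted p = 0.516 and 0.656), and *Grem1* was at -0.42 within batch 8995 and 1.53 within batch 9262. The reasons were not tested. The 52 genes were chosen by the study on libraries that include the same WT samples, so the list is not independent of them.

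The 2 knockout clones were compared in the same fit. Between KO26 and KO22, 34.4% of all genes tested had an edgeR adjusted p under 0.05. Both clones are set against the same 4 WT libraries, so only their difference is tested. Of the 24 named genes with the smallest p in KO26 (12 in each direction), 22 differed between the clones. These genes were chosen by their KO26 values and the same KO26 libraries enter the difference, so the 22 is a description and is not to be read against the 34.4%. *Rcan2* and *Scfd2* did not pass (adjusted p = 0.146 and 0.0539).

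For several of these genes the 2 clones lay on opposite sides of WT. *Tspan18*, a tetraspanin known from vessel cells, had 27.2, 25.6, 34.4 and 32.9 CPM in WT and 108 and 120 CPM in KO26, and its log2 fold change over WT was 1.92 in KO26 and -3.80 in KO22. *Mylk* was at 1.82 and -3.34 and *Mfap4* at 1.65 and -4.60. *Brinp3* was at -2.18 in KO26 and 1.83 in KO22, *Nrp2* at -1.66 and 1.21, *Stmn2* at -1.79 and 1.65, and *Grb10* at -1.45 and 1.84. The difference between clones had an edgeR adjusted p of 1.17e-06 for *Stmn2* and under that for the other 6 genes.

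In other genes both clones lay on the same side and KO26 was nearer to WT. *Slc7a11* was at 2.27 in KO26 and 5.73 in KO22, and *Tpx2* at 1.55 and 2.31. *Pamr1*, at -3.51 in KO26, had at most 3 counts in each KO22 library, too low for a fold. The mitosis list had a median of 2.15 with 32 calls in KO22, and 18 of its 33 genes differed between the clones. The replication list had a median of 2.07 with 30 calls, and 20 of 35 genes differed.

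In a further group KO22 lay near WT. *Rgs17*, which turns off G protein signals, was at 2.49 in KO26 and 0.26 in KO22 (edgeR adjusted p = 7.47e-05 for the difference between clones). *Chrdl1* was at 1.99 and -0.21 (adjusted p = 0.000112) and *Cdh13* at -1.84 and 0.06 (adjusted p = 6.37e-05). Others of the 24 were *Olfml3*, *Phf11b*, *D17H6S56E-5* and *Scn7a*, which differed between the clones by 0.90, 0.86, -0.54 and -1.25 on the log2 scale, and *Phf11b* and *D17H6S56E-5* have close relatives that may share their reads.

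**Figure D5:**
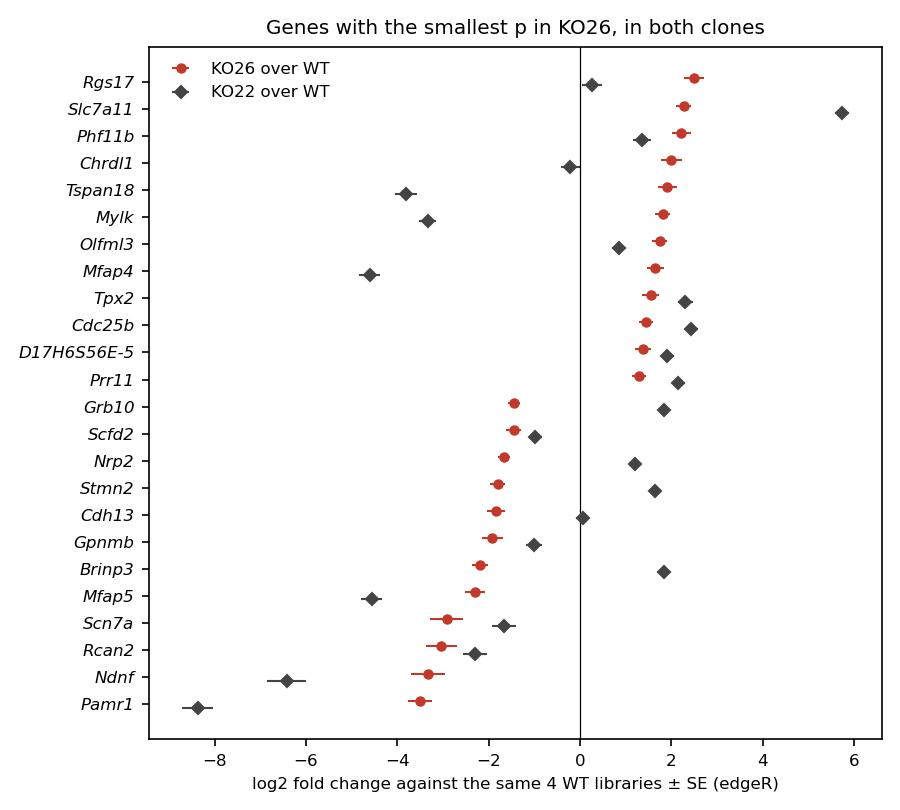
Log2 fold change over the same 4 WT libraries (edgeR, ± SE) of the 24 genes with the smallest p in KO26, for KO26 (red circles, 2 libraries) and KO22 (grey diamonds, 3 libraries). *Tspan18*, *Mylk* and *Mfap4* are above 0 in KO26 and below it in KO22, and *Brinp3*, *Nrp2*, *Stmn2* and *Grb10* are the reverse. The KO22 point of *Pamr1* rests on at most 3 counts in each library.

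Chromosomes differed little in their median log2 fold change. Among autosomes it ranged from -0.21 on chromosome 12 to 0.21 on chromosome 16, and within batches chromosome 12 was at -0.20 and -0.16 and chromosome 16 at 0.17 and 0.17. Chromosome X was at -0.13. The genes called lower were most frequent on chromosome 1, at 27 of 1439 tested (1.88%), where 24 (1.67%) were called higher. Over all genes tested the shares were 0.719% lower and 1.21% higher. Chromosome 1 was singled out after its value was seen.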

How the data were processed

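RNA of cultured mRPE cells was sequenced as stranded mRNA libraries. Per the labels and methods, the authors trimmed reads with Trim Galore 0.6.7, aligned them to mm39 (GRCm39) with STAR, which also counted reads per gene, and deposited raw counts. The strand setting is not given in the sources used here, and the labels and methods name different stranded kits. The methods drop genes with fewer than 5 counts in at least 3 samples. The deposited table lists 20910 genes.

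The raw counts were analysed in R 4.3.3 with edgeR 4.0.16, using TMM normalisation, a minimum of 5 counts in 3 or more of the 9 mRPE libraries (20737 genes), a group and a batch term, glmQLFit and glmQLFTest, and Benjamini-Hochberg adjustment. Standard errors were derived from the log2 fold change and its F statistic, with 5 residual degrees of freedom. Within-batch differences use log2(CPM + 0.5). A group was at the floor at 3 counts or fewer in each library, which was so in WT for 5 called genes and in KO26 for 14, and no fold is given for those. DESeq2 1.42.0 was an alternative, with other filters, limits and omitted libraries. Coordinates are from GENCODE M39.

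Genes were grouped by the cell line label of each sample. Named genes were, in each direction, the 12 with the smallest adjusted p and the 12 with the highest CPM among called genes with no overlap of libraries, the genes the study names, and members of gene lists. The members and lists were chosen with earlier results of these data known. On simulated counts for KO26 with WT, run on 20432 genes with 200 changed by a log2 fold change of 2, 188 were recovered and 7 unchanged genes were called. The changed genes were taken from those with an average log2 CPM over 1, and each gene was drawn independently. Shifts of many genes together in single libraries were not simulated, so these numbers do not cover them. The deposited tables of normalized values and of RPE/choroid samples were not used here.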

Additional observations from a re-analysis of the deposited data

Results flagged for a closer look

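In 18 of 121 genes named in the text, 1 WT library lay far from the other 3, where chance marks about 1 group in 20. In all of them it was 8995-SB-1, the only WT library of its batch, which was highest in 16 genes and lowest in 2. It was highest for *Aars1* (93.09 CPM), *Aldh1l2* (139.6), *Asns* (83.2), *Mthfd2* (15.73), *Psat1* (165), *Shmt2* (49.62), *Slc7a5* (21.53) and *Slc7a11* (5.761), which serve amino acid supply, and for *Actg2* (19.95), *Bub3* (87.09), *Cdk1* (55.07), *Kdr* (234.5), *Mad2l1* (28.17), *Pgr* (77.6), *Rcan2* (10.57) and *Txnrd1* (61.15). It was lowest for *D17H6S56E-5* (13.43 CPM) and *Oas3* (29.92 CPM).

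The log2 fold change over WT differed between the clones for 22 of the 24 genes with the smallest p in KO26 (edgeR, adjusted p under 0.05). The value of KO26 minus that of KO22 was positive for *Mfap4* (6.25), *Tspan18* (5.71), *Mylk* (5.15), *Pamr1* (4.86), *Ndnf* (3.10), *Mfap5* (2.26), *Rgs17* (2.22), *Chrdl1* (2.20), *Olfml3* (0.90) and *Phf11b* (0.86). It was negative for *Brinp3* (-4.01), *Slc7a11* (-3.46), *Stmn2* (-3.45), *Grb10* (-3.29), *Nrp2* (-2.87), *Cdh13* (-1.90), *Scn7a* (-1.25), *Cdc25b* (-0.99), *Gpnmb* (-0.91), *Prr11* (-0.87), *Tpx2* (-0.76) and *D17H6S56E-5* (-0.54). The genes were chosen by their KO26 values, and the same libraries enter the difference. For *Pamr1* the value rests on at most 3 counts in each KO22 library and gives no fold.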

How the results depend on the processing

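Leaving out 1 library gave 68 to 368 genes called higher and 32 to 258 called lower. The numbers called higher ranged from 3 to 23 for mitosis, 0 to 18 for replication, 2 to 11 for ATF4, 0 to 8 for interferon-stimulated and 0 to 7 for MHC class I genes. Where an omission leaves a group with 1 library in a batch or in all, that library is assumed to vary like the others. Without the batch term 123 genes were called higher and 71 lower (118 and 71 shared with the reported calls), with 0 interferon-stimulated, 0 MHC class I and 2 ATF4 genes. With no fold limit the numbers were 490 and 235, with 19 ATF4 and 26 mitosis genes, and a limit of 1 gave 25 mitosis genes. The WT and KO26 libraries alone gave 408 higher and 410 lower (217 and 144 shared), with 15 interferon-stimulated and 9 mitosis genes, and the higher share was 49.9% against 62.7%. DESeq2 gave 360 higher and 269 lower (233 and 145 shared), with 9 interferon-stimulated genes. DESeq2 size factors and the other count filters kept these numbers within 1.5 times. The cause of these shifts was not tested. No named gene that was called changed sign. Without the batch term *Il1r1* (-0.05), *Pax2* (-0.03), *Serp1* (0.28) and *Traf1* (-0.12) changed sign. Over the omissions of 1 library the log2 fold change crossed 0 for *Gclc* (-0.20 to 0.73), *Grem1* (-0.44 to 1.55), *Hmox1* (-0.26 to 0.54), *Il1rl1* (-0.79 to 0.28), *Mertk* (-0.46 to 0.02), *Pax2* (-0.35 to 0.88), *Pcolce2* (-0.06 to 0.82), *Qrich1* (-0.07 to 0.23), *Serp1* (-0.08 to 0.08), *Serpine2* (-1.24 to 0.32) and *Sod3* (-0.01 to 0.68), none of them called. It also did so for *Cdkn2a* (-1.62 to 3.17), at the count floor in both groups, where it is no measure of a fold. KO26 has 2 libraries, 1 per batch, which limits every call.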

Other observations

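Other genes that passed both limits in KO26 lay outside the lists and were singled out after their values were seen. *Pgr*, the progesterone receptor, had 77.6, 36.3, 40.9 and 39.7 CPM in the WT libraries 8995-SB-1, 9262-SB-1, 9262-SB-2 and 9262-SB-3 and 3.62 CPM in 8995-SB-3 and 10.5 CPM in 9262-SB-6 of KO26. *Thrb*, a thyroid hormone receptor, had 35.5, 28.3, 31.5 and 29.5 CPM in WT and 9.47 and 9.95 CPM in KO26. *Chd7*, a chromatin remodeller, had 25.7, 24.3, 22.3 and 25.3 CPM in WT and 3.25 and 8.67 CPM in KO26. Their log2 fold changes were -2.85, -1.69 and -2.11 (edgeR adjusted p = 0.0125, 0.0125 and 0.0108), and every KO26 library was below every WT library. In KO22 *Pgr* was at 0.0964 to 0.259 CPM, with at most 3 counts in each library, and *Chd7* had a log2 fold change of 1.48, and the clones differed in all 3 genes (edgeR adjusted p = 0.000281, 6.51e-06 and 4.45e-05). Leaving out 1 library moved *Pgr* between -4.42 (without 9262-SB-6) and -1.89 (without 8995-SB-3) and *Chd7* between -3.08 and -1.43 for the same libraries. The *Thrb* call was kept in 2 of the 6 fits that left out 1 library.

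*Krt14*, a basal keratin, was at 0.0686 to 0.397 CPM in WT and 9.84 and 2.08 CPM in KO26. *Thsd4*, which takes part in microfibril assembly, was at 2.46 to 16.9 CPM in WT and 42.4 and 94.3 CPM in KO26, with a log2 fold change of 3.02 whose call was kept in 1 of the 6 fits. *Krt14* was called again in the 3 fits in which it passed the count filter. *Kntc1*, which brings checkpoint proteins to the kinetochore, was at 30.4 to 42.4 CPM in WT and 96.3 and 100.3 CPM in KO26. Among genes named for their abundance, *Man1a*, a Golgi mannosidase, was at 130 to 166 CPM in WT and 49.97 and 57.4 CPM in KO26, and *Akr1c14*, a steroid dehydrogenase, at 54.2 to 74.8 and 20.5 and 25.6 CPM, with relatives that may share its reads, and 5 of the 6 fits kept each call. *Cdo1*, which degrades cysteine, was at 52.1 to 90.5 CPM in WT and 40.1 and 14.1 CPM in KO26.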
